A study of Homo sapiens with 60 samples.

Results

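The genes described here encode inhibitors of cyclin-dependent kinases (CDKs) and the pocket proteins of the retinoblastoma family. They were chosen by name as 8 of the 38342 gene names in the deposited expression table. CDKN1A, CDKN1B and CDKN1C encode the Cip/Kip inhibitors p21, p27 and p57. CDKN2C and CDKN2D encode the INK4 inhibitors p18 and p19, and RB1, RBL1 and RBL2 encode the pocket proteins pRB, p107 and p130. RNA came from the human breast cancer line MDA-MB-231, an established line of the triple-negative kind. Its cells were treated with DMSO as vehicle or with BAY2506856 at 100, 300 or 1000 nM. Cells were taken at 1, 3, 6 and 24 h by the sample labels, while the design text of the series names only the 24 h harvest. Each time had 6 libraries of DMSO and 3 of each dose, which makes 60 in 16 groups. The labels name no target of the compound, no other treatment is given, and all groups are of 1 line. The labels do not say whether the replicates are separate cultures, and the p-values reflect only how these samples spread, which may be technical.

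Progress from G1 into S phase depends on CDK4 and CDK6 with D-type cyclins and on CDK2 with E-type and A-type cyclins, which phosphorylate the pocket proteins. INK4 proteins bind CDK4 and CDK6, and Cip/Kip proteins bind cyclin-CDK complexes, those of CDK2 above all. An unphosphorylated pocket protein holds E2F transcription factors and keeps their target genes low. RBL1 is itself an E2F target that is high in cycling cells, while p130 is the pocket protein typical of quiescent cells, where it forms the DREAM complex with MuvB proteins. CDKN1A is the classical target of p53 and also responds to other transcription factors. Much of the control of these proteins, p27 and p130 above all, is by phosphorylation and ubiquitin-dependent breakdown, which RNA levels do not show.

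The cell line markers VIM, CD44, MSN, AXL and CAV1 summed to 1150 to 1461 FPKM (fragments per kilobase of transcript and M reads, with M for mega) in every library. The estrogen receptor gene ESR1 was at 0 in 59 of 60 libraries, the progesterone receptor gene PGR in 44, and the T cell gene CD3E in all 60. Other markers of luminal epithelium were present, with KRT8 at 71.5 to 143.5 FPKM, EPCAM at 4.43 to 16.3 and GATA3 at 1.34 to 5.58. CDH1 reached at most 1.09 FPKM. Among immune markers CD14 had a median of 1.63 FPKM and reached 2.83, and PTPRC reached at most 0.101. Depth was 0.475 to 86.5 M reads, with a median of 11.2. By the levels of 11 pseudogenes and of MT-ND6, a mitochondrial gene, 3 types of library could be told apart, on which the labels are silent. There were 41 libraries of type 1, 13 of type 2 and 6 of type 3, the last all DMSO of 1 or 3 h. Median depth was 11.9 M reads in type 1, 3.22 in type 2 and 14.6 in type 3. The 3 libraries under 2 M reads are all of type 2, so refits by type and by depth are not separate checks. The types are spread unevenly: 2 of the 3 libraries at 1000 nM and 24 h are of type 2, against 1 of the 6 DMSO libraries of that time. Within groups that held both, type 2 libraries had a lower CDKN1A level than type 1 in 11 of 11 groups (median difference -0.71 log2) and a lower CDKN2D level in 10 of 11 (-0.67). RB1 and RBL1 were higher in type 2 in 11 of 11 groups (medians 0.44 and 0.38). The shift thus ran down for CDKN1A and CDKN2D and up for RB1 and RBL1. RBL2 was higher in 8 of 11 (0.22), and CDKN1B showed almost no difference (-0.01). CDKN1C was lower in 8 of 11 (-0.38) and CDKN2C in 9 of 11 (-0.18). The results for the 8 genes against DMSO are therefore given over all libraries, and for those the text turns on also with a term for each library type. What the types are is not stated in the sources used here, and their part in the results was tested only by these refits.

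**Figure D1:**
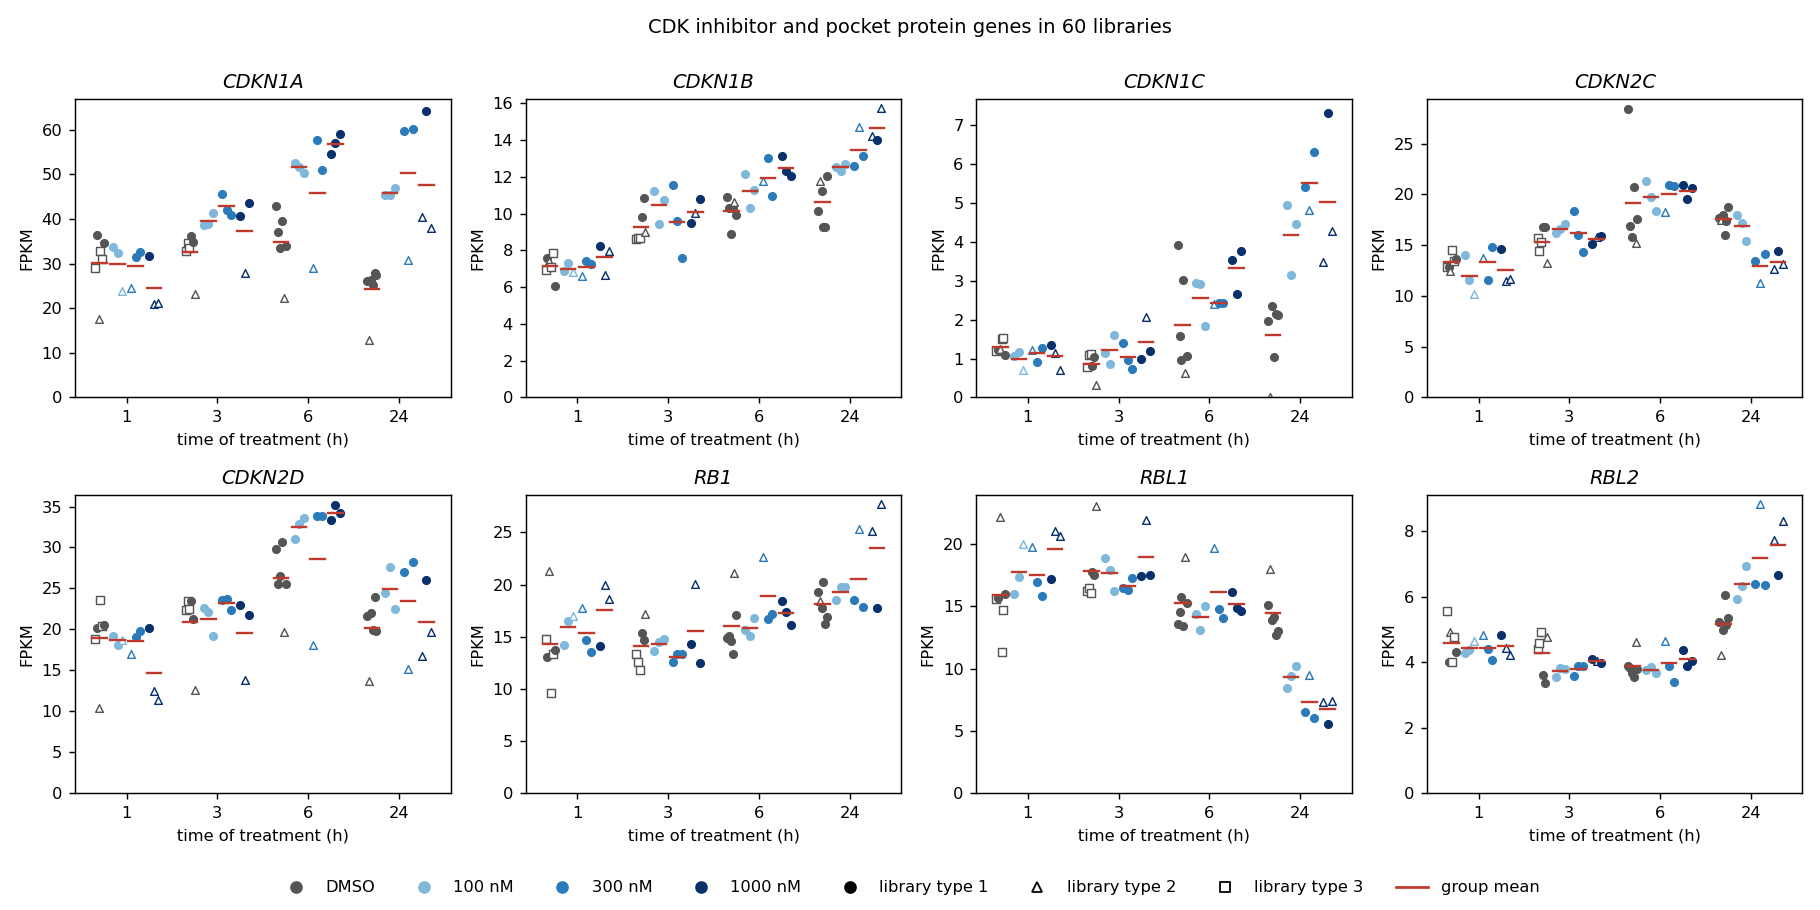
FPKM of each gene in the 60 libraries (vertical axis, from 0), by time of treatment in h (horizontal axis, evenly spaced) and dose (shade). Filled circles are type 1, open triangles type 2 and open squares type 3 libraries, and red bars are group means; at 24 h every treated RBL1 value, 5.54 to 10.2 FPKM, lies under every DMSO value, 12.7 to 18.0 FPKM.

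FPKM are scaled by transcript length, so levels can be set side by side between genes. In DMSO at 24 h CDKN1A was the highest at 24.3 ± 5.70 FPKM (mean ± SD, n = 6), followed by CDKN2D at 20.2 ± 3.51. RB1 was at 18.1 ± 1.47, CDKN2C at 17.5 ± 0.899 and RBL1 at 14.5 ± 1.94. The libraries of each of these 5 genes overlapped with those of the next in this order. CDKN1B at 10.6 ± 1.23, RBL2 at 5.16 ± 0.587 and CDKN1C at 1.60 ± 0.911 did not overlap with their neighbours. CDKN1A was the highest of the 8 by mean FPKM in all 16 groups. CDKN1C was the lowest in all 16. The other INK4 genes were nearly absent: CDKN2A reached at most 0.104 FPKM and CDKN2B was at 0 in every library.

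At 1 h none of the 8 genes passed the test (limma, Benjamini-Hochberg adjusted p under 0.05) at 1000, 300 or 100 nM, and among 15866 tested genes the share past it was 0, 0 and 0%. Unadjusted p was under 0.05 for 1, 0 and 0 of the 8 genes and for 1637, 192 and 809 of all genes. At 3 h none of the 8 passed at any dose, against 0.132% of all genes at 1000 nM, 0.126% at 300 nM and 0.0693% at 100 nM. None of the 8 had an unadjusted p under 0.05 at 3 h, against 1176, 933 and 933 of all genes. CDKN1A was at 40.9, 42.1 and 45.6 FPKM at 300 nM and 38.6, 38.8 and 41.3 FPKM at 100 nM, against 23.2 to 36.3 in DMSO, with log2 differences of 0.41 (adjusted p 0.898) and 0.29 (0.999). With type terms they were 0.23 (0.953) and 0.12 (1), and in type 1 libraries alone 0.26 (0.183) and 0.15 (1). The 6 DMSO libraries of 3 h are 2 of type 1, 1 of type 2 and 3 of type 3, and those at 300 and 100 nM are all of type 1. At 1000 nM CDKN1A was at 40.6 and 43.5 FPKM in type 1 and 27.8 in type 2, overlapping with DMSO. Its log2 difference at 1000 nM was 0.18 (adjusted p 0.917), and 0.25 (0.322) with type terms.

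At 6 h none of the 8 genes passed over all libraries at 1000, 300 or 100 nM, against 2.01, 1.67 and 0.863% of all genes. The number with an unadjusted p under 0.05 was 3, 1 and 1 of the 8 and 1237, 1564 and 818 of all genes. With library type terms 1 of the 8, CDKN1A, passed at each dose, against 4.65, 4.68 and 2.17% of all genes. CDKN1A, which encodes p21, was at 54.5, 57.0 and 59.1 FPKM at 1000 nM and at 50.4, 51.7 and 52.6 FPKM at 100 nM. The 300 nM libraries were at 51.0 and 57.6 FPKM in type 1 and 29.0 FPKM in type 2. The 5 DMSO libraries of type 1 were between 33.6 and 43.0 FPKM and the type 2 library was at 22.4. Treated libraries were above the DMSO libraries of their own type at all 3 doses, and only at 300 nM did the groups overlap when types were mixed. The log2 change at 1000 nM was 0.72 ± 0.22 (SE, adjusted p 0.0924) over all libraries and 0.60 ± 0.08 (2.26e-07) with type terms. At 300 and 100 nM it was 0.48 (2.44e-05) and 0.46 (8.61e-05) with type terms, and 0.36 (0.649) and 0.58 (0.481) without them.

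None of the other genes passed at 6 h over all libraries or with type terms. CDKN2D, which encodes the INK4 protein p19, was at 33.4 to 35.2 FPKM at 1000 nM, above all DMSO libraries (19.7 to 30.6). Its log2 difference was 0.39 (adjusted p 0.714) over all libraries, 0.29 (0.105) with type terms and 0.31 (0.00289) in type 1 libraries alone. At 300 nM CDKN2D was at 33.8 and 33.8 FPKM in type 1 and 18.1 in type 2, the latter under the type 2 DMSO library at 19.7. The difference at 300 nM was 0.08 (0.939) over all libraries, 0.18 (0.401) with type terms and 0.29 (0.0229) in type 1 alone. At 100 nM CDKN2D was at 31.0 to 33.7 FPKM. CDKN1B, which encodes p27, was at 12.0 to 13.2 FPKM at 1000 nM against 8.88 to 10.9 in DMSO. Its log2 difference was 0.29 (adjusted p 0.122, and 0.0588 with type terms). By voom on the recovered reads it passed, at 0.33 (0.0326), and at 0.33 (0.00714) with type terms. CDKN1C had a wide spread in DMSO at 6 h, from 0.631 to 3.92 FPKM, and its 1000 nM libraries (2.66 to 3.77 FPKM) lay within it. Its log2 difference at 1000 nM, 0.86 ± 0.34 (adjusted p 0.335) over all libraries and 0.77 (0.196) with type terms, was larger than those of the other 7 genes in size. It passed by voom on the recovered reads at 1.11 (0.00719), and at 1.07 (0.00156) with type terms. The 3 pocket protein genes differed by 0.003 (RBL1), 0.07 (RBL2) and 0.12 (RB1) log2 at 1000 nM, with adjusted p of 1 each.

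At 24 h 6 of the 8 genes passed at 1000 nM, 4 higher and 2 lower, against 34.7% of all genes, 19.1% higher and 15.6% lower. At 300 nM the same counts were 4 and 2, against 30.7% (16.5% higher and 14.2% lower). At 100 nM 3 were higher and 1 lower, against 19.7% (10.5% higher and 9.20% lower). The median log2 change of the 8 genes was 0.40, 0.26 and 0.26 at 1000, 300 and 100 nM, against 0.03, 0.05 and 0.05 for all tested genes. With type terms 5 were higher and 2 lower at 1000 nM, 5 and 2 at 300 nM and 4 and 1 at 100 nM, against 47.5, 44.6 and 30.6% of all genes. The 3 doses share their DMSO libraries. In bulk RNA fewer cells expressing a gene and less RNA per cell cannot be told apart.

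**Figure D2:**
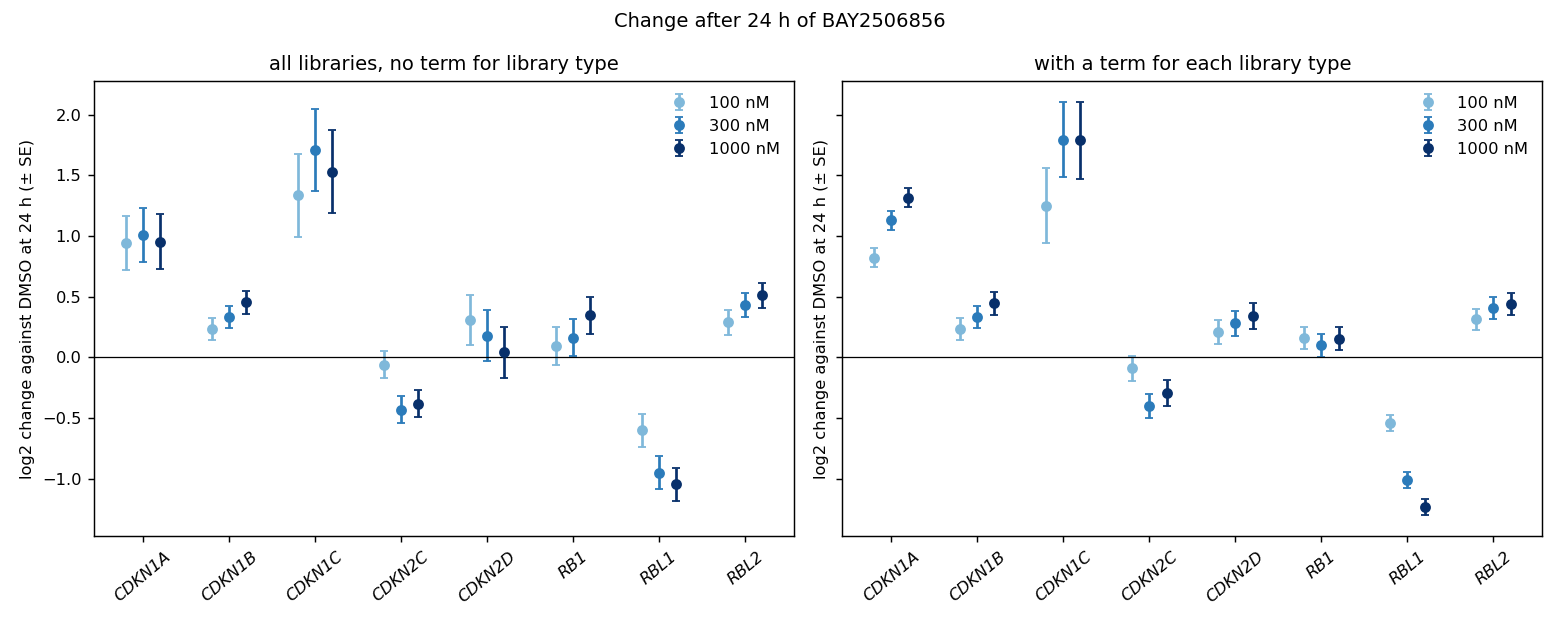
Log2 change against DMSO at 24 h (vertical axis, points with limma's standard error) of the 8 genes at 100, 300 and 1000 nM (shade), over all libraries (left) and with a term for each library type (right). CDKN1A at 1000 nM is at 0.96 on the left and 1.32 on the right, and RBL1 at -1.05 and -1.23.

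CDKN1A, which encodes the Cip/Kip inhibitor p21, was the most abundant of the risen genes. The DMSO libraries of 24 h were at 25.1, 26.1, 26.4, 27.5 and 27.9 FPKM in type 1 and at 12.9 FPKM in the type 2 library, where the gene had 19 reads. At 100 nM the libraries, all of type 1, were at 45.3, 45.4 and 46.9 FPKM. At 300 nM they were at 59.8 and 60.1 FPKM in type 1 and 30.8 in type 2, and at 1000 nM at 64.2 FPKM in type 1 and 38.0 and 40.4 in type 2. No treated library overlapped with DMSO at any dose. Within type 1 the level also stepped up from dose to dose without overlap, and the 2 type 2 libraries at 1000 nM lay above the 1 at 300 nM. The log2 change was 0.96 ± 0.22 (adjusted p 0.000579), 1.01 ± 0.22 (0.000331) and 0.94 ± 0.22 (0.0014) at 1000, 300 and 100 nM over all libraries. With type terms it was 1.32 ± 0.08 (1.29e-18), 1.13 ± 0.08 (1.08e-16) and 0.82 ± 0.08 (9.49e-12).

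CDKN1B, the p27 gene, rose less and more evenly. Its DMSO libraries were between 9.25 and 12.0 FPKM with a median of 10.7. The 3 libraries were at 12.3, 12.5 and 12.7 FPKM at 100 nM, at 12.6, 13.1 and 14.7 at 300 nM and at 14.0, 14.2 and 15.7 at 1000 nM. All 9 treated libraries were above all 6 DMSO libraries. The log2 change was 0.45 ± 0.09 (adjusted p 9.68e-05) at 1000 nM and 0.33 ± 0.09 (0.00401) at 300 nM, and with type terms 0.45 (0.000101) and 0.33 (0.00257). At 100 nM the difference of 0.23 did not pass over all libraries (0.0679) and passed with type terms (0.24, adjusted p 0.045). Without 300 nM replicate 2 the 300 nM value was 0.27 (0.0502), and without DMSO replicate 2 or 6 the 100 nM value was 0.26 (0.0463) or 0.27 (0.0344).

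CDKN1C, the p57 gene, had the largest log2 change and the lowest level. It was at 1.04 to 2.35 FPKM in the 5 DMSO libraries of type 1. In the type 2 DMSO library, replicate 2, no read was counted among 475370, which allows up to 2.396 FPKM (3 reads, counting error only). At 100 nM the libraries were at 3.15, 4.47 and 4.95 FPKM and at 300 nM at 4.83, 5.40 and 6.31. At 1000 nM they were at 7.30 FPKM in type 1 and 3.48 and 4.28 in type 2, the latter from 20 and 28 reads. All treated libraries lay above the DMSO libraries and above that limit. The log2 change was 1.53 ± 0.34 (adjusted p 0.000301), 1.71 ± 0.34 (7.66e-05) and 1.34 ± 0.34 (0.00298) at 1000, 300 and 100 nM. With type terms it was 1.79 (6.9e-06), 1.80 (4.27e-06) and 1.25 (0.00137). Without the DMSO library at 0 it was 1.16 (0.000731), 1.34 (0.000142) and 0.96 (0.0101).

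The INK4 genes went apart. CDKN2C, the p18 gene, was at 16.0 to 18.8 FPKM in DMSO and at 15.4, 17.2 and 17.9 FPKM at 100 nM, overlapping with it. It was lower at 300 nM, with 11.3, 13.5 and 14.1 FPKM, and at 1000 nM, with 12.6, 13.1 and 14.4, and neither group overlapped with DMSO. The log2 change was -0.43 ± 0.11 (adjusted p 0.00243) at 300 nM, -0.38 ± 0.11 (0.00624) at 1000 nM and -0.06 (0.769) at 100 nM. With type terms it was -0.40 (0.00107), -0.29 (0.0178) and -0.09 (0.566) in the same order. In type 1 libraries alone, with 1 library left at 1000 nM that is assumed to vary like the other groups, it was -0.34 (0.0414) at 300 nM and -0.28 (0.239) at 1000 nM. Without the libraries under 2 M reads the 300 nM value was -0.34 (0.0546).

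CDKN2D did not pass over all libraries at any dose of 24 h, with log2 differences of 0.04, 0.18 and 0.31 (adjusted p 0.903, 0.571 and 0.33) at 1000, 300 and 100 nM. Its type 2 libraries were low in each 24 h group that held one, at 13.7 FPKM in DMSO, 15.2 at 300 nM and 16.8 and 19.7 at 1000 nM. Its type 1 libraries were at 19.8 to 24.0 FPKM in DMSO, 22.5 to 27.7 at 100 nM, 27.0 and 28.2 at 300 nM and 26.1 at 1000 nM. Within each type all libraries at 300 and 1000 nM were above DMSO. In type 2 this rests on 1 DMSO library with 10 reads of the gene. The treated type 2 libraries had 42 reads at 300 nM and 56 and 75 at 1000 nM. With type terms the log2 change was 0.34 ± 0.11 (0.00589) at 1000 nM and 0.28 ± 0.10 (0.022) at 300 nM, and 0.21 (0.116) at 100 nM. In type 1 libraries alone it passed at all 3 doses, with 0.28 (0.0331), 0.36 (0.000402) and 0.21 (0.0173).

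Among the pocket protein genes RBL1 fell and RBL2 rose, and the promoters of these genes are shown, picked with their directions seen. Whether the words in a promoter bear on the direction of its gene was not tested. The sequences are the 250 bases before the RefSeq start site on GRCh38.p14, 5′ to 3′ on the strand of the gene, chr20:37095998-37096247 (minus strand) for RBL1 and chr16:53434221-53434470 (plus strand) for RBL2, with matches to the words searched in capitals.
RBL1: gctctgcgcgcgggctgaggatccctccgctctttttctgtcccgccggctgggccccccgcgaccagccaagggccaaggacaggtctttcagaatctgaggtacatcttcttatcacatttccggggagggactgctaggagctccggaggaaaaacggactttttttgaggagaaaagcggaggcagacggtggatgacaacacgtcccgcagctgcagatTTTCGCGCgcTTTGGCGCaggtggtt
RBL2: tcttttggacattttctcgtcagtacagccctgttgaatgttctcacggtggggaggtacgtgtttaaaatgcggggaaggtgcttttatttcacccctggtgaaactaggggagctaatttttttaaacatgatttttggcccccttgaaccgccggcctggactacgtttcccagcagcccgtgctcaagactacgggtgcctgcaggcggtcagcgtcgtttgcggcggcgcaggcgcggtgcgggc

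The words were searched on both strands in windows of 300 bases, 250 before and 50 after each start site, and no word contains another. They were the E2F words TTTCCCGC, TTTCGCGC, TTTGCCGC and TTTGGCGC, the cell cycle homology region word TTTGAA, the FOXO word GTAAACA, the TEAD word GGAATG and the E-box CACGTG. RBL1 had 2 E2F words, TTTCGCGC from -26 to -19 and TTTGGCGC from -16 to -9 relative to the start site. E2F words stood in 3.315% of all 35116 RefSeq promoters of the table, the homology region word in 15.16%, the FOXO word in 3.423%, the TEAD word in 14.03% and the E-box in 7.256%. RBL2 had none of these words in the bases shown and TTTGAA from 25 to 30 after the start site. Of the 8 genes 7 were found in the table, with 10 windows, and CDKN1C was not. The one window of RB1 starts 172699 bases into the gene as RefSeq gives it and that of CDKN1A 2251 bases, so the outermost start of neither gene was searched, which for RB1 is that of its main promoter. Of the 6 genes found other than RB1, RBL1 alone had an E2F word in the windows searched. CDKN2C had an E-box word in 2 of its 3 windows and a TEAD word in 2, and the windows of CDKN1A, CDKN1B and CDKN2D held no word. A match is a description of letters only.

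RBL1, which encodes p107, was at 12.7, 13.0, 13.9, 14.2 and 15.1 FPKM in the type 1 DMSO libraries of 24 h and at 18.0 FPKM in the type 2 library. It was at 8.44, 9.43 and 10.2 FPKM at 100 nM. At 300 nM it was at 6.02 and 6.51 FPKM in type 1 and 9.49 in type 2, and at 1000 nM at 5.54 in type 1 and 7.33 and 7.43 in type 2. All 9 treated libraries lay under all 6 DMSO libraries. The log2 change was -1.05 ± 0.14 (adjusted p 2.25e-08), -0.95 ± 0.14 (2.32e-07) and -0.60 ± 0.14 (0.000984) at 1000, 300 and 100 nM. With type terms it was -1.23 ± 0.07 (6.75e-20), -1.01 ± 0.07 (2.86e-17) and -0.54 ± 0.07 (1.25e-08).

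RBL2, which encodes p130, was at 4.23 FPKM in the type 2 DMSO library, from 15 reads, and between 4.98 and 6.05 in the others. It was at 5.94, 6.32 and 6.93 FPKM at 100 nM, all of type 1. At 300 nM it was at 6.35 and 6.38 FPKM in type 1 and 8.83 in type 2. At 1000 nM it was at 6.66 FPKM in type 1 and 7.74 and 8.31 in type 2. The type 2 values of the treated libraries came from 119, 126 and 154 reads. In type 1 libraries alone RBL2 differed from 100 nM by -0.004 log2 at 300 nM and 0.06 at 1000 nM, where 1 library was left. Only the 100 nM group overlapped with DMSO, by 1 library. The log2 change was 0.51 ± 0.10 (adjusted p 7.13e-05), 0.43 ± 0.10 (0.000799) and 0.29 ± 0.10 (0.0392) at 1000, 300 and 100 nM, and 0.44, 0.41 and 0.31 with type terms. The 300 nM value was 0.28 (0.0508) without replicate 2 and 0.23 (0.118) without the libraries under 2 M reads. The 100 nM call was lost without 100 nM replicate 1, 2 or 3 (adjusted p 0.0523, 0.0979 and 0.204) and without DMSO replicate 2 or 3 (0.110 and 0.0566). It was also lost under 4 of the 8 other alternatives, with adjusted p of 0.0688 with no filter on low values, 0.0557 with median-of-ratios scaling, 0.079 without libraries under 2 M reads and 0.0997 by voom.

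RB1 itself, the gene of pRB, did not pass at any dose of 24 h. It was at 16.3 to 20.2 FPKM in DMSO, 18.5 to 19.8 at 100 nM, 17.8, 18.5 and 25.4 at 300 nM and 17.8, 25.1 and 27.7 at 1000 nM. The 3 high values are the type 2 libraries of these doses. The type 2 DMSO library was at 18.4 FPKM, from 55 reads, within the range of the type 1 DMSO libraries and under those 3 values. The log2 difference at 1000 nM was 0.35 ± 0.15 (adjusted p 0.0759) over all libraries, 0.16 (0.178) with type terms and -0.02 (0.916) in type 1 alone. Without 1000 nM replicate 2, the type 1 library, it was 0.53 (0.0121).

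**Figure D3:**
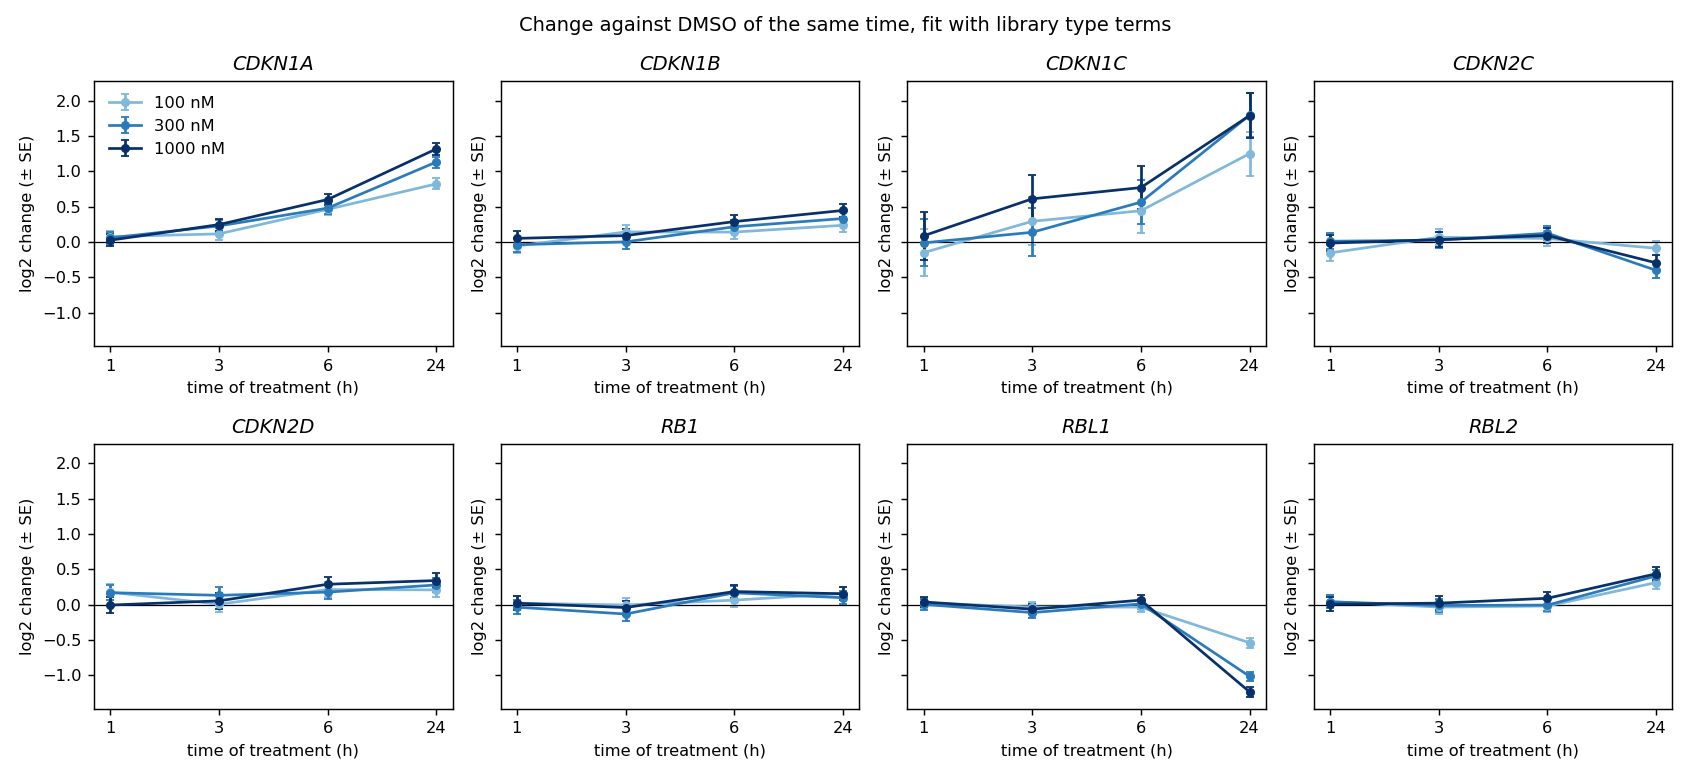
Log2 change against DMSO of the same time (vertical axis, with standard error) of each gene at 1, 3, 6 and 24 h (horizontal axis, evenly spaced) at 3 doses (shade), from the fit with library type terms. CDKN1A at 1000 nM is at 0.60 at 6 h and 1.32 at 24 h, while RBL1 is at 0.07 at 6 h and -1.23 at 24 h.

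Whether the effect of a dose differed between 24 and 6 h was tested as an interaction. Over all libraries 3 of the 8 genes passed at 1000 nM, against 15.1% of all genes, and 3 at 300 nM, against 13.9%. None passed at 100 nM, against 3.35%, where 2 had an unadjusted p under 0.05, as did 2036 of all genes. The genes were RBL1, CDKN2C and RBL2. RBL1 had differences of -1.05 ± 0.19 (adjusted p 7.29e-05) at 1000 nM and -1.03 ± 0.19 (0.000121) at 300 nM. In the same order CDKN2C had -0.50 (0.0242) and -0.52 (0.0193), and RBL2 had 0.45 (0.0284) and 0.41 (0.0486). With type terms 4, 5 and 2 genes passed at 1000, 300 and 100 nM, against 27.4, 28.7 and 10.8% of all genes. CDKN1A was then among them at each dose, with 0.72 (2.29e-06), 0.65 (7.57e-06) and 0.36 (0.0239), as was RBL1, with -1.30, -1.03 and -0.50. At 100 nM the mean CDKN1A level itself fell, from 51.5 FPKM at 6 h to 45.8 at 24 h, while that of DMSO fell from 34.9 to 24.3. In type 1 libraries alone the 1000 nM differences of CDKN2C and RBL2 were -0.34 (0.274) and 0.18 (0.211). Leaving out 1 library also ended these calls. The 1000 nM call of CDKN2C was lost without treated replicate 1 or 3 of 6 h (adjusted p 0.0593 and 0.0557) or of 24 h (0.0771 and 0.0564), and its 300 nM call without treated replicate 3 of 6 h (0.0513) or 2 of 24 h (0.076). The 1000 nM call of RBL2 was lost without treated replicate 2 or 3 of 6 h (0.0827 and 0.0646), treated replicate 1 or 3 of 24 h (0.0718 and 0.113) or DMSO replicate 5 of 6 h (0.0536). Its 300 nM call was lost without any of 11 libraries (0.0543 to 0.230), which are treated replicates 2 and 3 of 6 h and 2 of 24 h, and DMSO replicates 1, 2, 5 and 6 of 6 h and 1, 2, 3 and 5 of 24 h. At 300 nM CDKN1A gained a call without treated replicate 2 of 24 h (0.97, adjusted p 0.032), and CDKN1C without DMSO replicate 5 of 6 h (1.41, 0.033).

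The DMSO libraries moved with time as well, which sets the base for each comparison. Over all libraries 1, 0, 1 and 3 of the 8 genes passed for 3 against 1 h, 6 against 3 h, 24 against 6 h and 24 against 1 h, against 0.536, 0.504, 9.34 and 18.2% of all genes. With type terms the counts were 1, 2, 3 and 6, against 2.10, 3.91, 26.2 and 24.9%. CDKN1B rose from 7.16 ± 0.637 FPKM at 1 h to 9.28 ± 0.892 at 3 h (log2 change 0.35, adjusted p 0.00925) and was at 10.6 at 24 h (0.53 against 1 h, 5.87e-07). The 3 h call was lost without DMSO 1 h replicate 6 (0.0544) or 3 h replicate 5 (0.0504). CDKN2C was at 13.3 ± 0.746 FPKM at 1 h and 17.5 at 24 h (0.39, 0.00183). RBL2 rose from 3.90 ± 0.373 FPKM at 6 h to 5.16 at 24 h (0.36, 0.00266). RB1 passed for 24 against 1 h at 0.36 (0.0368), a call lost without DMSO replicate 2, 4, 5 or 6 of 1 h or 1, 2 or 4 of 24 h (0.0568 to 0.163).

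CDKN1A fell in DMSO from 34.9 ± 7.07 FPKM at 6 h to 24.3 at 24 h, a change of -0.53 with an adjusted p of 0.0567 over all libraries and 1.76e-08 with type terms. Over all libraries it passed without DMSO replicate 5 of 6 h (-0.65, 0.0153) or replicate 5 or 6 of 24 h (-0.58, 0.0458, and -0.57, 0.0482). In type 1 libraries DMSO went from 33.6 to 43.0 FPKM at 6 h to 25.1 to 27.9 at 24 h. There 1000 nM went from 54.5 to 59.1 FPKM to 64.2, and 300 nM from 51.0 and 57.6 FPKM to 59.8 and 60.1. At 100 nM CDKN1A was lower at 24 h, at 45.3 to 46.9 FPKM against 50.4 to 52.6 at 6 h. CDKN2D in DMSO was at 26.3 ± 3.90 FPKM at 6 h and 20.2 at 24 h (-0.38, adjusted p 0.16, and 0.000625 with type terms). In type 1 libraries at 300 nM it was at 33.8 and 33.8 FPKM at 6 h and 27.0 and 28.2 at 24 h. The level of CDKN2D was thus lower at 24 h than at 6 h in treated libraries as well as in DMSO.

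Between doses at 24 h none of the 8 genes passed over all libraries, for 1000 against 100 nM (4.94% of all genes), 300 against 100 nM (1.17%) or 1000 against 300 nM (0.0126%). The number with an unadjusted p under 0.05 was 3, 2 and 0 of the 8 and 3358, 1244 and 852 of all genes. With type terms 2 genes passed for 1000 against 100 nM (7.92%), 2 for 300 against 100 nM (4.04%) and none for 1000 against 300 nM (0.0504%). They were CDKN1A and RBL1 both times. CDKN1A was higher at 1000 than at 100 nM by 0.49 ± 0.09 log2 (adjusted p 0.0002) and at 300 than at 100 nM by 0.31 ± 0.09 (0.039). RBL1 was lower by 0.69 ± 0.08 (-0.69, 1.21e-08) and 0.48 ± 0.08 (-0.48, 3.81e-05). From 300 to 1000 nM their differences were 0.19 (0.664) and -0.22 (0.454). The other 6 genes did not pass between any of these doses in either fit.

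Genes with a similar pattern were taken as the 3 with the highest Pearson r over the 16 group means among 8229 genes with a mean of at least 5 FPKM. The 16 groups share the library types and the DMSO drift, and the r values are a description. RBL1 was most like CCNE2 (r = 0.994), MASTL (0.992) and MTHFD2 (0.991). CCNE2 encodes cyclin E2, MASTL the mitotic kinase Greatwall and MTHFD2 a mitochondrial folate enzyme. RBL2 was most like APOL1 (0.993), CDH11 (0.984) and LPIN2 (0.977), and CDKN1C like CXXC5 (0.988), HERPUD1 (0.976) and KIF3C (0.975). CDKN2C was most like GTSE1 (0.926), CDC25C (0.904) and CENPA (0.888), which are genes of G2 and mitosis. CDKN1A was most like ADGRE5 (0.943), CHST3 (0.939) and RABIF (0.923). CDKN1B was most like IRF2BP2 (0.979), ZNF322 (0.976) and ZNF322P1 (0.967), of which the last is a copy of the second whose reads may be shared. CDKN2D was most like C6orf106 (0.955), STARD8 (0.946) and DNAJB1 (0.943), and RB1 like FAM199X (0.981), RALGPS2 (0.976) and LMBR1 (0.974). In type 1 libraries alone the r of these RB1 neighbours was 0.887, 0.900 and 0.841. Among the 8 genes the r of RBL1 with RBL2 was -0.89 and with CDKN1C -0.88, and that of CDKN1B with CDKN1C was 0.83.

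The partners and targets of the 8 genes were described by lists chosen by function. The first list held cyclin, CDK and CDC25 genes and CDKN3. At 1000 nM and 24 h 9 of its 13 tested genes were lower and 0 higher, against 15.6% lower and 19.1% higher among all genes. The median log2 change was -0.79 against 0.03 for all genes. The same shares apply to the other lists at this dose and time. CDC25A, the phosphatase that activates CDK2, fell from 10.7 to 2.10 FPKM (-2.11 ± 0.08, adjusted p 5.89e-27). The cyclin genes CCNE2 and CCNE1 fell by 2.01 and 1.55 on the log2 scale (4.28e-16 and 1.28e-16). The counts of lower genes at 300 and 100 nM were 10 and 6, against 14.2 and 9.20% of all genes. Of 10 E2F and DP genes 6 were lower and 0 higher at 1000 nM (median -0.53), led by the activator genes E2F1 (-1.92) and E2F2 (-1.05) and the repressor gene E2F8 (-1.26). Of 8 tested DREAM/MuvB genes 7 were lower and 0 higher (median -0.75). MYBL1 (-1.11) and MYBL2 (-1.08), which encode Myb family factors, B-Myb of MYBL2 being the one that binds MuvB in cycling cells, and the MuvB gene LIN52 (-0.85) led them.

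All 20 S phase target genes of E2F fell at 1000 nM (median -1.59) and at 300 nM (-1.39), and 18 of 20 at 100 nM (-0.68), against 15.6, 14.2 and 9.20% of all genes. PRIM1, a primase subunit, was at 12.4 FPKM in DMSO and 2.08 at 1000 nM (-2.34). CDC6, a replication licensing factor, was at 26.3 and 5.46 FPKM (-2.17), and UHRF1, which maintains DNA methylation, at 29.8 and 6.64 (-2.07). At 6 h 0 of the 20 passed at 1000 nM over all libraries (1 with type terms), against 2.01 and 4.65% of all genes, with a median of -0.04, and RBL1 did not pass either.

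**Figure D4:**
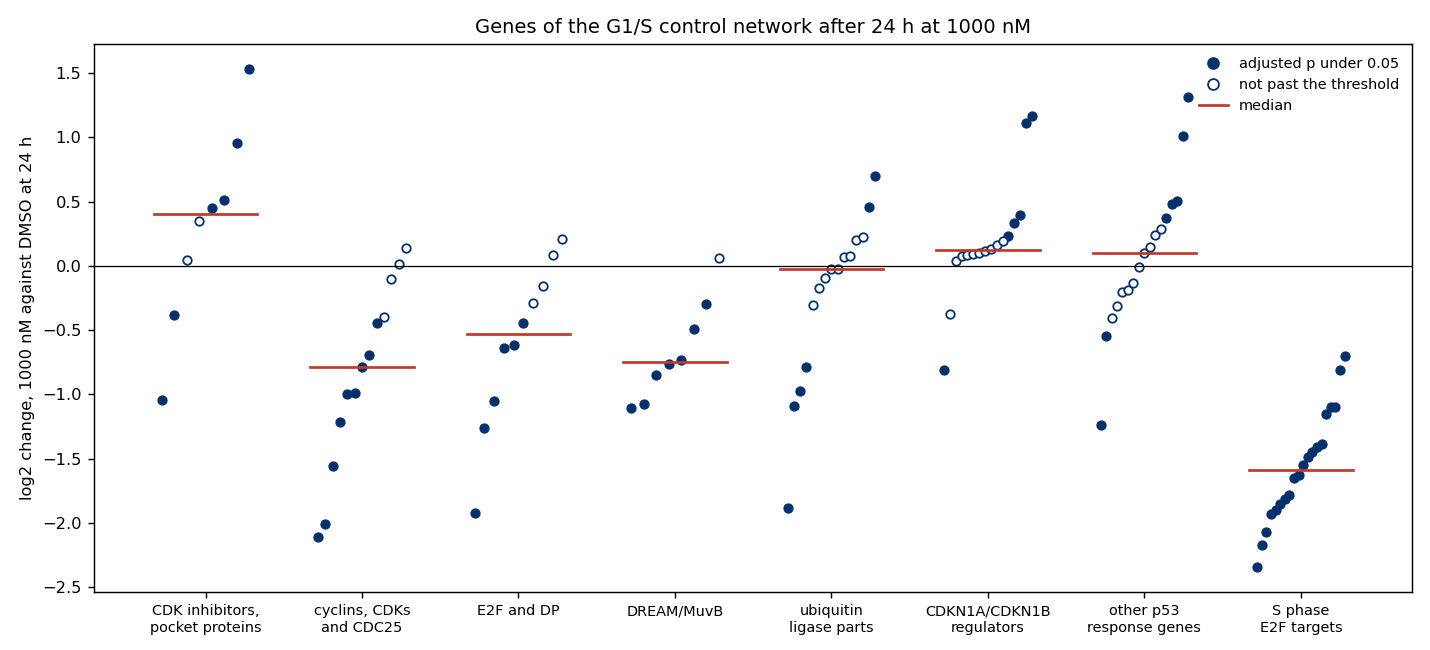
Log2 change at 1000 nM against DMSO at 24 h (vertical axis) of each tested gene of 8 lists (horizontal axis, sorted by value within a list), filled where the adjusted p is under 0.05, with the median as a red bar. All 20 S phase targets lie below 0 (median -1.59), while the 8 CDK inhibitor and pocket protein genes run from -1.05 to 1.53.

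Of 15 ubiquitin ligase genes that act on CDK inhibitors and pocket proteins 4 were lower and 2 higher at 1000 nM (median -0.03), a share of called genes near the 34.7% of all genes. The lower ones include SKP2, the receptor for p27 and p130, from 12.3 to 6.09 FPKM (-0.97, adjusted p 3.76e-14), and DTL, the receptor that marks p21 in S phase, from 20.6 to 5.28 (-1.88). CDC20, an activator of the anaphase-promoting complex, fell by 1.09 on the log2 scale. Outside the naming rule, and chosen with their values seen, the other lower gene was CKS1B, the SKP2 cofactor (-0.79), and the 2 higher ones were TRIM21 (0.70) and RNF123 (0.46). Of 16 transcription factor genes that act on the CDKN1A and CDKN1B promoters 5 were higher and 1 lower (median 0.12), again near the 34.7% of all genes in either direction, and in type 1 libraries alone 3 and 1. KLF6, a zinc finger activator of CDKN1A, was at 35.2 FPKM in DMSO and 79.7 at 1000 nM (1.17 ± 0.06, 8.28e-22). The forkhead gene FOXO4 was at 1.48 and 3.69 FPKM (1.11), and MYC, a repressor of CDKN1A, fell by 0.81 on the log2 scale (7.01e-09). The other higher ones, chosen with their values seen, were FOXO1 (0.40), FOXO3 (0.33) and SMAD2 (0.23).

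Of 17 tested other genes of the p53 response 5 were higher and 2 lower at 1000 nM (median 0.10 against 0.03 for all genes), not far from the 19.1 and 15.6% of all genes. At 300 nM 3 were higher and 2 lower, against 16.5 and 14.2%, and 6 and 3 with type terms, against 44.6% of all genes in either direction. BBC3, which encodes the BH3-only protein PUMA, rose by 1.31 (adjusted p 0.00203) and TP53I3 by 1.01 (6.02e-06), while AEN, which encodes a nuclease, fell by 1.24 on the log2 scale (5.47e-09). Named with their values seen, RRM2B (0.50), XPC (0.48) and ZMAT3 (0.37) were the other higher genes and PPM1D (-0.55) the other lower one. The remaining 10 did not pass at 1000 nM.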

How the data were processed

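RNA of MDA-MB-231 cells was poly(A) selected, made into stranded libraries and sequenced as single reads, per the labels' protocols. Per the submitters' processing notes the tools were STAR 2.4.2a with hg19, featureCounts 1.4.6-p2 of Subread, and DESeq2; they counted over an annotation release not given in the sources used here. As expression values the authors deposited log2 of FPKM plus 1; the tests had been written for FPKM, so each value was converted back to FPKM. All 1304094 values above 0 gave whole reads within 0.01 read (100.0%), and their sums were taken as the depth of each library. The reads of a gene are found only up to a common factor. A gene seen in only 1 library is whole by construction.

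Of 36114 detected genes, the 15866 that reached 1 FPKM in 3 or more libraries were fitted with limma 3.58.1 (R 4.3.3) on log2(FPKM + 0.5), with 1 mean per group over 60 libraries, 44 residual degrees of freedom, a variance trend and robust variances. A fold on this scale understates changes of low genes. Benjamini-Hochberg adjustment ran over all genes within each of 29 comparisons, with a threshold of 0.05. The test was run on simulated data. Alternatives were a pseudocount of 0.1, no filter, median-of-ratios scaling, library type terms, type 1 only, no libraries under 2 M reads, leaving out each library, voom on the recovered reads and, chosen after seeing the data, voom with type terms. Library types were read from the values.

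The genes, lists and alternatives were chosen with earlier results of these data known. Named are the 8 genes, from each list up to 3 called genes that changed most at 1000 nM and 24 h, and for each of the 8 the 3 genes most like it. Promoters are from RefSeq, GRCh38.p14, a build other than that of the reads.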

Additional observations from a re-analysis of the deposited data

Results flagged for a closer look

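In DMSO groups of 6 libraries, 10 values of the CDK inhibitor and pocket protein genes stood apart from the other 5 by Dixon's criterion (gap over range above 0.625), of 32 groups of a gene and time examined, where chance gives about 1 in 20. All 10 were type 2 libraries. For CDKN1A they were 17.5 FPKM in 1 h replicate 3, 23.2 in 3 h replicate 6 and 12.9 in 24 h replicate 2. CDKN2D was at 10.5, 12.6 and 13.7 FPKM in the same 3 libraries. CDKN1C was at 0.326 FPKM in 3 h replicate 6, from 2 reads, and at 0 in 24 h replicate 2, from 0 reads. The latter allows up to 2.396 FPKM (3 reads, counting error only). The other 5 DMSO values of 24 h, 1.04 to 2.35 FPKM, lie under that limit. RBL1 was high in 3 h replicate 6 at 23.1 FPKM, and RBL2 in 6 h replicate 5 at 4.62 FPKM.

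The effect of the compound differed between 24 and 6 h for 3 genes by the interaction test. At 1000 nM the difference was -0.50 log2 for CDKN2C, -1.05 for RBL1 and 0.45 for RBL2. At 300 nM it was -0.52, -1.03 and 0.41. Several of these calls were lost under alternatives. CDKN2C in type 1 libraries alone was at -0.34 (adjusted p 0.274) at 1000 nM and -0.44 (0.0918) at 300 nM, and at 300 nM it was -0.44 (0.0890) without libraries under 2 M reads. RBL2 at 1000 nM was at 0.28 (0.270) by voom, 0.14 (0.405) by voom with type terms and 0.18 (0.211) in type 1 alone, and had an adjusted p of 0.0553 with no filter. RBL2 at 300 nM was lost with a pseudocount of 0.1 (0.0539), no filter (0.0942), median-of-ratios scaling (0.0590), without libraries under 2 M reads (0.356) and by voom without and with type terms (0.314 and 0.0924). RBL1 kept its call at both doses under these alternatives. With type terms 4 and 5 genes passed at 1000 and 300 nM, CDKN1A among them.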

How the results depend on the processing

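Against DMSO, 730 of 768 values of the 8 genes under the 8 alternatives other than leaving out a library stayed on their side of the threshold in the same direction, 7 lost the call, 31 gained one and 0 reversed; a direction was compared only where a call was made. Over all libraries 6, 6 and 4 of the 8 genes had a call at 24 h (1000, 300 and 100 nM) and 0 at each earlier time. Most of the 768 values thus had no call to lose. In the other comparisons 1017 of 1088 stayed, 15 lost and 56 gained the call. At 6 h, where 0 of the 8 genes passed at any dose, library type terms gave 1, 1 and 1 at 1000, 300 and 100 nM, type 1 libraries alone 2, 2 and 1, and voom with type terms 4, 2 and 2. At 1000 nM voom gave 3 and leaving out the libraries under 2 M reads 1. The cause was not tested.

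Over all tested genes, no filter gave 21, 9 and 10 calls at 1 h at 1000, 300 and 100 nM, against 0. At 1 h leaving out libraries under 2 M reads gave 1 at 1000 nM, voom with type terms 1 at 300 nM and type terms 1 at 100 nM. At 3 h type terms gave 36 at 1000 nM against 21, no filter 31 at 300 nM against 20, and no filter 26, type 1 alone 6 and voom 21 at 100 nM against 11. At 6 h the counts of 319, 265 and 137 became 738, 742 and 345 with type terms, 1222, 767 and 535 in type 1 alone and 1124, 1040 and 723 with voom and type terms. No filter gave 490 and 462 at 1000 and 300 nM, leaving out libraries under 2 M reads 405 at 300 nM, and voom 256 at 100 nM. At 24 h voom with type terms gave 8853 at 300 nM against 4864. At 100 nM, against 3122, it gave 5393, type terms 4855 and type 1 alone 5660. Type terms also moved 1000 against 100 nM at 24 h from 784 to 1256, 300 against 100 nM from 185 to 641, and the 24 minus 6 h effects from 2398, 2201 and 532 to 4347, 4557 and 1721.

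Leaving out 1 library gave 0 to 4, 0 to 1 and 0 to 4 genes at 1 h (1000, 300, 100 nM), 13 to 34, 10 to 23 and 6 to 16 at 3 h, 173 to 313, 165 to 311 and 65 to 131 at 6 h and 4399 to 5903, 4048 to 4848 and 2061 to 3217 at 24 h. For the 8 genes it gave 0 before 24 h and 6 to 7, 4 to 6 and 3 to 5 at 24 h. No paired analysis was possible because the labels give no replicate numbers shared between groups. Depth limits CDKN1C most, with 0 to 1170 reads per library.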
